A study of Rattus norvegicus with 9 samples.

Results

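The genes described here make the MHC class II antigen presentation machinery of the rat: the class II chains RT1-Da, RT1-Db1, RT1-Ba, RT1-Bb, RT1-DMa and RT1-DMb, the invariant chain Cd74 and the class II regulator Ciita. They were chosen by name and not by their measured values. Of these 8 genes, 7 were found among the 17602 genes of the expression table and all 7 were tested. RT1-Db1 was not analysed here.

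RNA sequencing had been run on 3 groups of rat knee tissue with 3 libraries each, all from wild-type, young adult male rats of the Lewis strain. The Intact group was synovium, the lining of the joint, taken next to the medial meniscus of knees that had no surgery. Synovium of that site, collected 1 week after a sham operation, made up the Sham group. For the pMx group, the new tissue found 1 week after partial medial meniscectomy (pMx) was cut away from the remaining meniscus and cleared of the synovium around it. The pMx and Sham groups thus differed both in the operation and in the tissue taken, and the effects of these cannot be told apart. The libraries are labelled as biological replicates, but the labels do not tie them to animals or to surgery days. If the libraries of a group share animals, the p-values measure only the spread between libraries.

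Class II molecules are pairs of an alpha and a beta chain that display peptides from engulfed proteins to CD4 T cells. They assemble in the endoplasmic reticulum around the invariant chain, which blocks the groove and leads them to the endosome. There, proteases cut the invariant chain down and the class II-like DM pair exchanges its last fragment for antigen peptides. Ciita, a coactivator that binds no DNA itself, switches these genes on together. In joints, class II is carried mainly by macrophages, dendritic cells and B cells, and interferon gamma can induce it in fibroblasts and endothelium.

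Expression was given as TPM, a level per transcript length scaled so that every library sums to the same total. TPM keeps no read numbers, so the depth of a library is unknown and the only error that can be given is the spread between libraries. Genes above 0 TPM numbered 15914 to 15965 in Intact, 16074 to 16125 in Sham and 15644 to 15794 in pMx libraries. The synovial marker Prg4 (lubricin) was abundant in every group, at 2646 ± 478 TPM in Intact, 1315 ± 118 in Sham and 1453 ± 335 in pMx (SD, n = 3). The summed level of 8 adipocyte markers was 3396 to 7189 TPM in Intact and 4425 to 4790 in Sham, but 336 to 513 in pMx. Intact replicate 3 stood apart, with 39242 TPM in 8 skeletal muscle markers against at most 2633 in any library of the surgery groups, and it also had the lowest level of each of the 7 class II genes in its group. Many of the results that rest on it are therefore also given without it. RNA integrity, as listed by the study, was lowest in the Intact and highest in the pMx samples, and its part in the results was not tested.

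The class II genes that passed the test described below followed 2 courses across the groups. RT1-Bb, Cd74 and Ciita passed in no comparison with all libraries, and all 7 genes were higher in every Sham than in every Intact library. Several of the calls were lost when a single library was left out. The classical chains RT1-Da and RT1-Ba were at their highest after sham surgery and fell in the regrown tissue. There, RT1-Da was at 0.552 times and RT1-Ba at 0.586 times the Sham level on the log2(TPM + 1) scale. That scale is used for all fold changes of single genes, while ratios between genes use TPM without the added 1. The peptide exchange genes RT1-DMa and RT1-DMb rose after sham surgery by 1.67-fold and 1.73-fold, and in pMx tissue they stood 1.95-fold and 1.74-fold above Intact. The 7 genes together took 0.140% to 0.229% of all TPM in Intact libraries, 0.253% to 0.288% in Sham and 0.149% to 0.249% in pMx. In whole tissue, fewer cells of a type and less RNA per cell cannot be told apart.

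**Figure D1:**
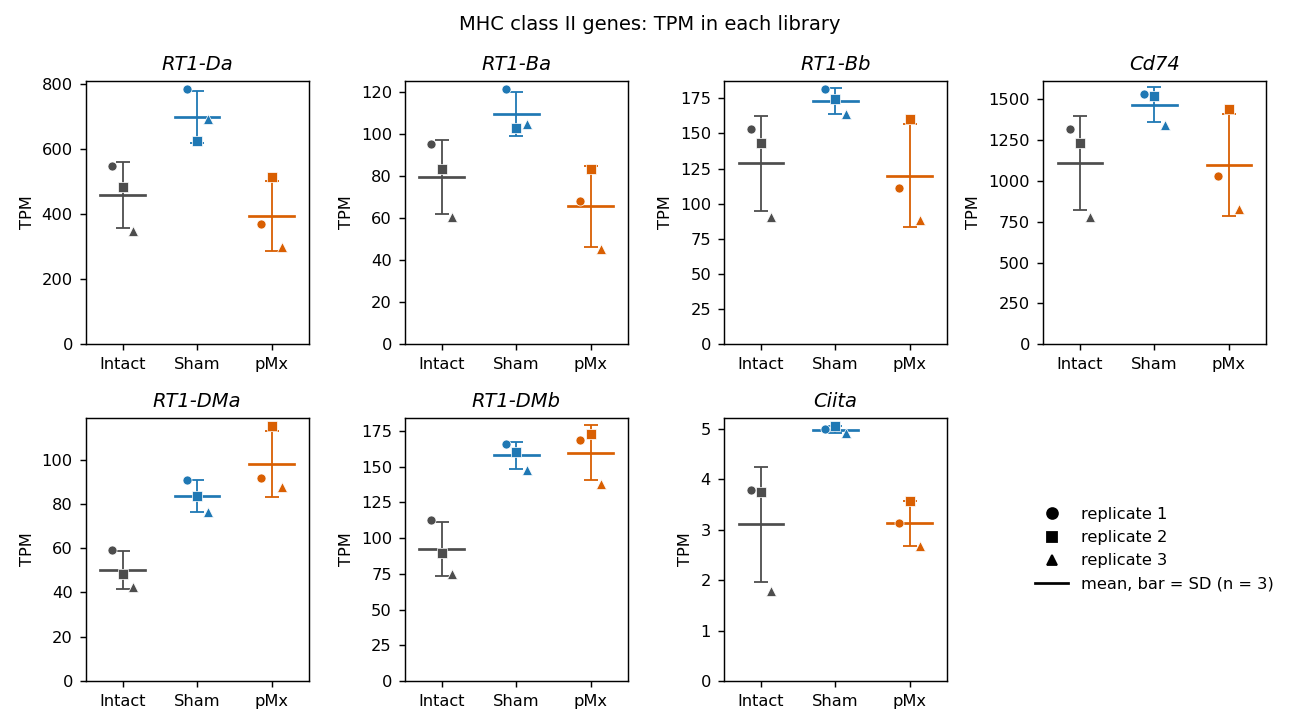
TPM of the 7 class II genes (vertical axes, each from 0) in the 3 Intact, 3 Sham and 3 pMx libraries, with the replicate number as the symbol, the group mean as a line and the SD as a bar. All 3 Sham libraries lie above all 3 Intact libraries for each gene. In pMx, RT1-DMa (87.6 to 115 TPM) and RT1-DMb (138 to 173 TPM) lie above Intact, while the other 5 genes overlap the Intact range.

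The differences were tested with limma on log2(TPM + 1) over 16512 genes that were detected, at more than 0 TPM, in 3 or more libraries, and a gene rose or fell where its Benjamini-Hochberg adjusted p was below 0.05. In pMx against Sham, 2 of the 7 genes fell and none rose. Of all genes tested in that comparison, 18.9% fell and 17.7% rose, so a count of 2 in 7 is close to the background. In Sham against Intact, 2 of the 7 rose and none fell, where 6.73% of all genes rose and 5.97% fell. In pMx against Intact, again 2 of the 7 rose and none fell, where 23.4% of all genes rose and 27.1% fell. These 3 comparisons share libraries pairwise and are not independent of each other.

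With the study's rule for a differentially expressed gene (DEG), which also asks for an absolute log2 fold change above 1, limma called 0 of the 7 in each comparison. The DEG rule took 8.21% of all genes in pMx against Sham, 1.96% in Sham against Intact and 14.3% in pMx against Intact. At an unadjusted limma p below 0.05, without the fold rule, 4, 4 and 2 of the 7 passed in these comparisons, where 45.6%, 28.7% and 56.4% of all genes did. The class II changes were therefore moderate in size, with the largest a log2 fold change of 0.96 for RT1-DMa in pMx against Intact.

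In Sham against Intact and in pMx against Sham, more of the 7 genes had groups that did not overlap than passed the test. Among all genes, too, groups that did not overlap were more common than calls in the same direction. In Sham against Intact all 7 genes had every Sham library above every Intact library, a pattern that 14.2% of all genes tested showed. In pMx against Sham, RT1-Da, RT1-Ba, RT1-Bb and Ciita had every pMx library below every Sham library, as did 29% of all genes. In pMx against Intact only RT1-DMa and RT1-DMb of the 7 had groups that did not overlap, both higher, as 26.9% of all genes were. The median log2 fold change of the 7 genes was -0.54 in pMx against Sham, 0.59 in Sham against Intact and -0.02 in pMx against Intact, beside -0.01, -0.02 and -0.03 for all genes tested. Leaving out Intact replicate 3, it was 0.33 in Sham against Intact and -0.25 in pMx against Intact, with -0.05 for all genes in both.

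**Figure D2:**
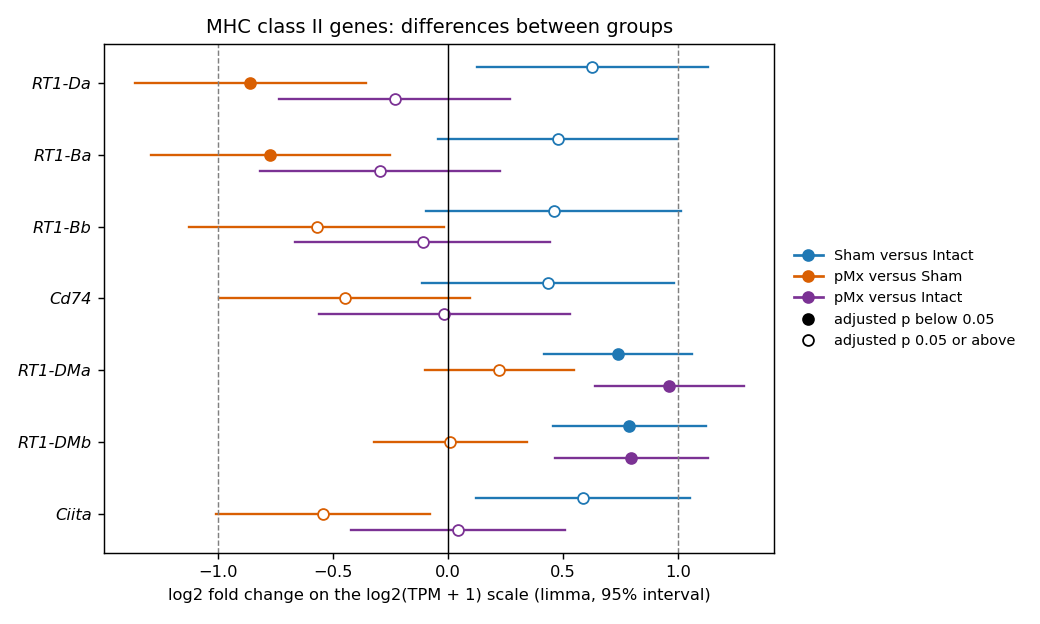
Log2 fold change on the log2(TPM + 1) scale (horizontal axis) of each class II gene in the 3 comparisons, with its 95% interval from limma. Filled points passed an adjusted p of 0.05, namely RT1-Da (-0.86) and RT1-Ba (-0.77) in pMx against Sham and RT1-DMa and RT1-DMb (0.74 to 0.96) in the comparisons with Intact, and dashed lines mark the DEG rule's fold threshold of 1.

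RT1-Da encodes the alpha chain of the rat molecule related to human HLA-DR. Its level was the highest of the class II chains analysed here in every library. Its Intact libraries had 547, 483 and 348 TPM, its Sham libraries 785, 625 and 691 TPM and its pMx libraries 369, 513 and 300.2 TPM, in replicate order. The Sham libraries were all above both other groups, and the pMx range spanned most of the Intact range. RT1-Da fell in pMx against Sham, with a log2 fold change of -0.86 (SE 0.22, 95% interval -1.36 to -0.36, limma adjusted p = 0.0156). Its increase in Sham over Intact, 0.63 on the log2 scale, did not pass (limma adjusted p = 0.0990), and neither did the pMx difference from Intact of -0.23 (limma adjusted p = 0.416). The fall was lost when Sham replicate 1, pMx replicate 1 or pMx replicate 3 was left out, with limma adjusted p of at most 0.0566 and log2 fold changes from -1.07 to -0.68 over all 9 omissions.

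RT1-Ba and RT1-Bb encode the alpha and beta chains of the rat molecule related to human HLA-DQ. RT1-Ba measured 95.2, 83.3 and 60.7 TPM in Intact, 122, 103 and 105 TPM in Sham and 68.1, 83.5 and 45.5 TPM in pMx. Its pMx libraries were all below its Sham libraries, and it fell by 0.77 on the log2 scale (SE 0.23, limma adjusted p = 0.0284). That call was the less stable of the pair of falls, since it was lost in 5 of the 9 omissions, namely any Sham library, pMx replicate 1 or pMx replicate 3 (limma adjusted p up to 0.0903). RT1-Bb measured 153, 143 and 90.2 TPM in Intact, 182, 174 and 164 TPM in Sham and 111, 160 and 88.2 TPM in pMx. Its pMx libraries also lay below its Sham libraries, though pMx replicate 2 did so narrowly, and its log2 fold change of -0.57 did not pass (SE 0.24, limma adjusted p = 0.101). Without Intact replicate 3, which enters only the shared estimate of the spread, RT1-Bb and Ciita passed too and 4 of the 7 genes were lower in pMx than in Sham, where 23.3% of all genes were.

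The alpha and beta chains of this molecule were also compared with each other, by a ratio chosen after the values were seen. The TPM ratio of RT1-Ba to RT1-Bb was 0.581 to 0.673 in Intact, 0.589 to 0.670 in Sham and 0.516 to 0.612 in pMx. In pMx replicates 2 and 3 it was below every Intact and Sham library. The pMx ratio was 0.867 times that of Sham, with overlapping groups and an exact two-sided permutation p of 0.2 (n = 3 per group), where the smallest possible is 0.1. The levels of different class II chains also depend on how reads of the Lewis strain aligned to the reference genome, because these genes are highly polymorphic between rat strains. This was not tested, and neither was the sharing of reads between near-identical copies such as RT1-Db1 and RT1-Db2.

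Cd74, the invariant chain, had the highest level of the 7 genes in every library. It measured 1318, 1231 and 780 TPM in Intact, 1533, 1518 and 1341 TPM in Sham and 1027, 1441 and 829 TPM in pMx. The Sham libraries were above all Intact libraries, while pMx replicate 2 lay inside the Sham range, so pMx and Sham overlapped. The pMx difference from Sham was -0.45 on the log2 scale (95% interval -1.0 to 0.098, limma adjusted p = 0.181), an interval that holds both no difference and a fall to about the size seen for RT1-Da. The pMx difference from Intact was -0.02 (95% interval -0.56 to 0.53, limma adjusted p = 0.971), and its sign turned under other scalings.

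RT1-DMa and RT1-DMb encode the chains of the DM pair, which sits in endosomes and does not itself display peptides. RT1-DMa measured 59.4, 48.1 and 42.6 TPM in Intact, 90.8, 83.6 and 76.3 TPM in Sham and 91.8, 115 and 87.6 TPM in pMx. RT1-DMb measured 113, 89.2 and 75.2 TPM in Intact, 166, 160 and 148 TPM in Sham and 169, 173 and 138 TPM in pMx. For both genes the Sham and pMx libraries lay above all Intact libraries and overlapped each other.

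Both DM genes rose in Sham against Intact, RT1-DMa by 0.74 (SE 0.14, limma adjusted p = 0.0154) and RT1-DMb by 0.79 (SE 0.15, limma adjusted p = 0.0137) on the log2 scale. These calls were lost without Sham replicate 1 or Sham replicate 2, where the limma adjusted p reached at most 0.0610. Without Intact replicate 3 the rises were 0.63 for RT1-DMa (limma adjusted p = 0.0212) and 0.65 for RT1-DMb (limma adjusted p = 0.0143). Both also rose in pMx against Intact, RT1-DMa by 0.96 (limma adjusted p = 5.65e-04) and RT1-DMb by 0.80 (limma adjusted p = 0.00191), and passed in each of the 9 omissions. Between pMx and Sham the differences were 0.22 for RT1-DMa (95% interval -0.10 to 0.55, limma adjusted p = 0.257) and 0.01 for RT1-DMb (95% interval -0.32 to 0.34, limma adjusted p = 0.968). The intervals of the DM genes therefore leave out a fall of the size fitted for RT1-Da or RT1-Ba.

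Ciita, the regulator on which class II transcription depends, was the least abundant of the 7. It measured 3.79, 3.74 and 1.79 TPM in Intact, 5, 5.05 and 4.91 TPM in Sham and 3.13, 3.57 and 2.67 TPM in pMx. Its Sham libraries were close together and above all others, and the Intact and pMx groups overlapped. The log2 fold changes were 0.59 in Sham against Intact (SE 0.20, limma adjusted p = 0.0959), -0.54 in pMx against Sham (SE 0.20, limma adjusted p = 0.0669) and 0.04 in pMx against Intact (limma adjusted p = 0.881), none past the threshold. The Sham difference from Intact was 0.33 without Intact replicate 3 (limma adjusted p = 0.0776). Fitted on the 6 Sham and pMx libraries alone, Ciita was lower in pMx than in Sham with a limma adjusted p of 0.00623. In that comparison it also passed under median-of-ratios scaling (limma adjusted p = 0.0408) and with a block for the replicate number (limma adjusted p = 0.0474). It did not pass in the remaining runs with all libraries, where the limma adjusted p was at most 0.0897, under quantile normalization. On leaving out a library the limma adjusted p ran from 0.00307 to 0.181, and among these omissions Ciita passed only without Intact replicate 3.

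The order of levels among the 7 genes was not the same in the regrown tissue. In Sham libraries the means ran from Cd74 (1464 ± 107 TPM) through RT1-Da (700.4 ± 80.1), RT1-Bb (173 ± 9.09), RT1-DMb (158 ± 9.38), RT1-Ba (110 ± 10.3, where the libraries spanned 103 to 122) and RT1-DMa (83.6 ± 7.22) to Ciita (4.99 ± 0.0709). RT1-Bb and RT1-DMb overlapped in that order and the other neighbours did not. In pMx the order ran Cd74 (1099 ± 312), RT1-Da (394 ± 109), RT1-DMb (159.8 ± 19.2), RT1-Bb (119.9 ± 36.8), RT1-DMa (98.2 ± 14.9), RT1-Ba (65.7 ± 19.1) and Ciita (3.12 ± 0.450). RT1-DMa was below RT1-Ba in all Intact and Sham libraries and above it in all 3 pMx libraries. RT1-Bb overlapped both DM genes in pMx.

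The balance between the DM pair and the classical chains was taken within each library as a ratio, which does not depend on how a library was scaled. This ratio was chosen after the values were seen. RT1-DMa stood at 0.109, 0.0996 and 0.123 times RT1-Da in Intact, at 0.116, 0.134 and 0.110 times in Sham and at 0.249, 0.225 and 0.292 times in pMx. All 3 pMx libraries were above all others, by 2.12-fold against Sham and 2.31-fold against Intact, and Intact and Sham overlapped. With 3 libraries against 3 the exact two-sided permutation p was 0.1 in both cases, the smallest this design allows, and 0.3 after adjustment over 12 such tests. RT1-DMa was at 0.517 to 0.666 times RT1-DMb over the 9 libraries.

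**Figure D3:**
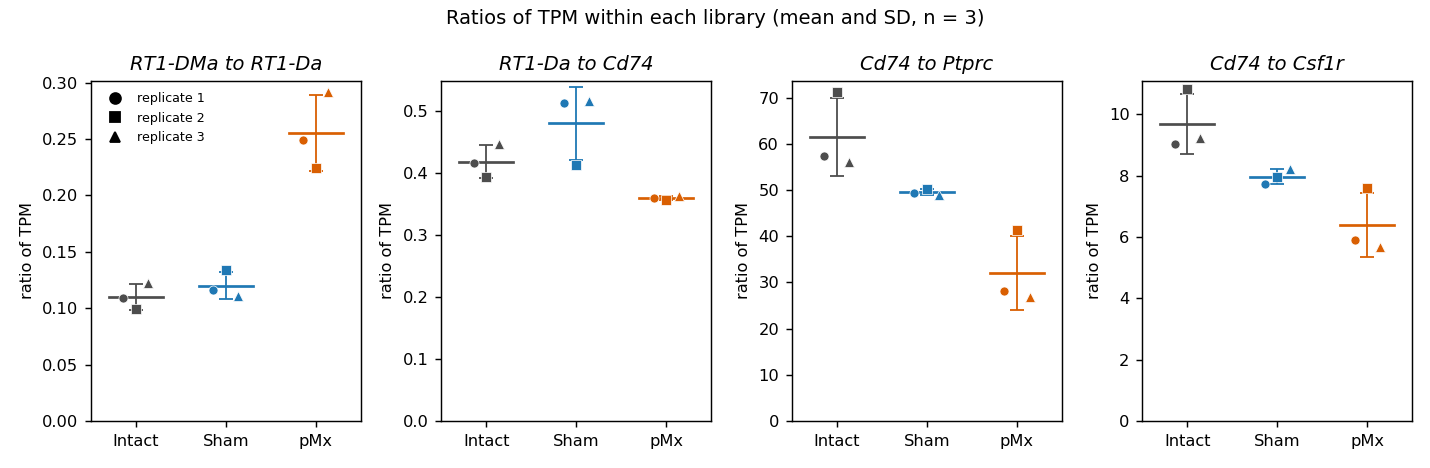
Ratios of TPM within each library (vertical axes, from 0) for RT1-DMa to RT1-Da, RT1-Da to Cd74, Cd74 to the leukocyte gene Ptprc and Cd74 to the macrophage gene Csf1r, with means and SD (n = 3). The RT1-DMa to RT1-Da ratio is 0.225 to 0.292 in pMx against at most 0.134 elsewhere, and both Cd74 ratios are lowest in pMx.

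RT1-Da was also low in pMx relative to the invariant chain that its molecule assembles on. It stood at 0.415, 0.393 and 0.446 times Cd74 in Intact, 0.512, 0.412 and 0.515 times in Sham and 0.359, 0.356 and 0.362 times in pMx. The pMx libraries were the lowest and nearly equal, at 0.752 times the Sham ratio (exact two-sided permutation p = 0.1, n = 3 per group, 0.3 after adjustment over 12 tests). Sham replicate 2 lay within the Intact range.

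Across the 9 libraries the 7 genes split along the same line. Pearson correlations of log2(TPM + 1) between RT1-Da, RT1-Ba, RT1-Bb, Cd74 and Ciita ran from 0.852 to 0.991, and RT1-DMa correlated with RT1-DMb at 0.963. Between a DM gene and any of the other 5 they ran from 0.136 to 0.594. These are descriptions over 9 libraries that fall into 3 groups, and all values of a library share its composition.

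Promoters of class II genes are known for an X box, bound by the RFX complex, followed by a Y box, bound by NF-Y, on which Ciita docks. The promoter sequences that follow show these letters for the class II chains whose levels are given above. RefSeq promoters of the rat assembly GRCr8, which run from 250 bases before to 50 bases after the start site, were given for 5 of the 7 genes (RT1-Da, RT1-Ba, RT1-Bb, RT1-DMa and Cd74). The deposited values were made on another assembly, so these positions are those of GRCr8 alone. Capitals mark the X box core letters ACNGATG and the Y box letters TGATTGG, and each sequence is written along its gene's strand.
RT1-Da, chr20:4515328-4515378, plus strand: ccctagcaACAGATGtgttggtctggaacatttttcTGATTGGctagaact
RT1-Bb, chr20:4604167-4604216, minus strand: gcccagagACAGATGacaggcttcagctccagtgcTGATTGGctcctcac
RT1-DMa, chr20:4712387-4712437, minus strand: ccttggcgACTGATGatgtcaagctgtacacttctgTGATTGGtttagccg
RT1-Ba, chr20:4576967-4577026, plus strand: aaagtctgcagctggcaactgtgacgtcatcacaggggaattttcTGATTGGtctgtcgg

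In RT1-Da and RT1-DMa 21 bases separated the boxes and in RT1-Bb 20 bases, and the Y box ended 44, 59 and 56 bases before the start site. RT1-Ba held the Y box letters without these X box letters, and Cd74 held neither. The letters were chosen after the promoters were read, and the pair do not overlap each other. Searched on both strands, the X box letters were in 10.2% and the Y box letters in 7.06% of 33469 rat promoters of this length, and both were in 0.726%. An X box followed by a Y box 10 to 40 bases on, along the gene's strand, was in 11 promoters (0.0329%), of which 6 were class II chains: RT1-Da, RT1-Db1, RT1-Db2, RT1-Bb, RT1-DOb and RT1-DMa. RT1-Da and RT1-DMa both held this arrangement, and whether it bears on their levels in the groups was not tested. A match of letters does not show binding.

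Transcripts of factors that bind class II promoters changed by small amounts. Of 7 genes (Rfx5, Rfxap and Rfxank of the RFX complex, Nfya, Nfyb and Nfyc of NF-Y, and Creb1), 1 rose and none fell in pMx against Sham, none rose and 1 fell in Sham against Intact, and 1 rose and 2 fell in pMx against Intact. Rfxank rose from 18.6 ± 1.32 TPM in Sham to 22.9 ± 1.70 in pMx, by 0.28 on the log2 scale (limma adjusted p = 0.0226), and from 17.2 ± 0.525 in Intact by 0.39 (limma adjusted p = 0.00340). Nfyb fell from 20.6 ± 0.945 TPM in Intact to 16.6 ± 0.866 in Sham (limma adjusted p = 0.0491) and 15.8 ± 1.31 in pMx (limma adjusted p = 0.00540), and Rfxap fell from 20.6 ± 0.977 in Intact to 16.6 ± 1.84 in pMx (limma adjusted p = 0.0253). The Sham call for Nfyb was lost without Intact replicate 3. The largest of these changes was 0.39, and the list's median log2 fold change was -0.01, -0.09 and -0.10 in the 3 comparisons. Counts of this list and of those below are to be read beside the shares of all genes. These were 17.7% higher and 18.9% lower in pMx against Sham, 6.73% and 5.97% in Sham against Intact, and 23.4% and 27.1% in pMx against Intact.

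Interferon gamma acts through its receptor and the kinases Jak1 and Jak2 to induce Irf1 and, with it, Ciita. The interferon gamma gene Ifng was not analysed here. Of 9 genes of this route, 2 rose and 3 fell in pMx against Sham. Jak2 rose from 29.3 ± 4.57 to 48.4 ± 6.97 TPM (log2 fold change 0.71, limma adjusted p = 0.00327) and Socs1, which dampens Jak signalling, from 6.77 ± 1.08 to 14.4 ± 1.76 TPM (0.99, limma adjusted p = 0.0125). Irf1 fell from 48.4 ± 1.88 to 32.7 ± 3.33 TPM (-0.56, limma adjusted p = 0.0381), its partner Irf2 from 27.1 ± 0.950 to 19.8 ± 1.73 TPM (-0.44, limma adjusted p = 0.0101) and Gbp2, an interferon-induced GTPase, from 54.3 ± 8.20 to 27.4 ± 1.17 TPM (-0.95, limma adjusted p = 0.00193). Jak1 (-0.16) and the receptor genes Ifngr1 (0.04) and Ifngr2 (0.12) did not pass.

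Sham surgery moved 1 gene of the interferon route up, Ifngr2 from 27.2 ± 0.403 to 32.1 ± 1.22 TPM (limma adjusted p = 0.0292), and none down. Leaving out Intact replicate 3, limma called 4 lower in Sham than in Intact. Of all 16512 genes it then called 1937 lower, against 985 with all libraries. In pMx against Intact 3 rose (Ifngr2, Jak2 and Socs1) and 5 fell, among them Jak1, Irf1, Irf2 and Gbp2, with Gbp2 at a log2 fold change of -1.38 (limma adjusted p = 1.43e-04). The route's median log2 fold change was -0.08, -0.16 and -0.42 in pMx against Sham, Sham against Intact and pMx against Intact, beside -0.01, -0.02 and -0.03 for all genes, and -0.45 in Sham against Intact without Intact replicate 3.

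The other class II chains found in the expression table were scarce. RT1-DOa and RT1-DOb encode DO, a brake on DM that is known from B cells and some dendritic cells. RT1-DOa had 4.57, 3.94 and 3.20 TPM in Intact, 4.87, 5.66 and 4.61 TPM in Sham and 2.41, 2.80 and 1.71 TPM in pMx. All its pMx libraries were below all others, and it fell against Sham by 0.88 (limma adjusted p = 0.00275) and against Intact by 0.57 (limma adjusted p = 0.0151) on the log2 scale. RT1-DOb had 3.44, 4.09 and 3.46 TPM in Intact, 5.49, 5.12 and 4.25 TPM in Sham and 3.25, 3.75 and 2.16 TPM in pMx. It fell in pMx against Sham by 0.57 (limma adjusted p = 0.0244), with groups that did not overlap. RT1-Ha was at most 0.65 TPM, and RT1-Db2 was listed at 0 in 8 libraries and at 0.18 TPM in Intact replicate 2.

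A list of 12 genes for the endosomal handling of class II and its antigens held 7 proteases, the reductase Ifi30, the membrane proteins Lamp1 and Lamp2 and the ubiquitin ligases Marchf1 and Marchf8. In pMx against Sham, 1 of the 12 (Lgmn) rose and 4 (Ctsl, Ctss, Ctsh and Lamp2) fell, where 17.7% of all genes rose and 18.9% fell. Ctsl (cathepsin L) fell from 1811, 1483 and 1853 TPM in Sham to 813, 820 and 771 TPM in pMx, by 1.09 on the log2 scale (limma adjusted p = 1.94e-04). Ctss (cathepsin S), the main protease of the late invariant chain step in antigen-presenting cells, fell from 442 ± 58.5 to 291 ± 30.1 TPM (-0.60, limma adjusted p = 0.0288). Ctsh (cathepsin H) fell from 897 ± 53.2 to 609 ± 52.6 TPM (-0.56, limma adjusted p = 0.0124). Lgmn (legumain), an asparaginyl protease of the same compartment, rose from 403.5 ± 52.6 to 555 ± 44.7 TPM (0.46, limma adjusted p = 0.0358), and Ctsb (0.35) and Ctsd (0.23) did not pass.

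After sham surgery 5 of the 12 processing genes rose and none fell. Ifi30, the thiol reductase GILT that unfolds antigens, rose from 112.9, 89.4 and 78.9 TPM in Intact to 172, 183 and 163 TPM in Sham (log2 fold change 0.89, limma adjusted p = 0.00607), and its 154, 159.97 and 133 TPM in pMx also stood above Intact (0.67, limma adjusted p = 0.00234). Ctsz (0.80), Lgmn (0.69), Ctsd (0.60) and Lamp1 (0.31) were the others, with limma adjusted p from 0.0134 to 0.0495. In pMx against Intact 6 rose and 1, Ctsl, fell. Without Intact replicate 3 the counts were 3 higher and 5 lower in pMx against Sham, 5 and 0 in Sham against Intact, and 6 and 4 in pMx against Intact. Of all 16512 genes, limma then called 3628 higher and 3854 lower, 1032 and 1937, and 3724 and 5192 in the same order.

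**Figure D4:**
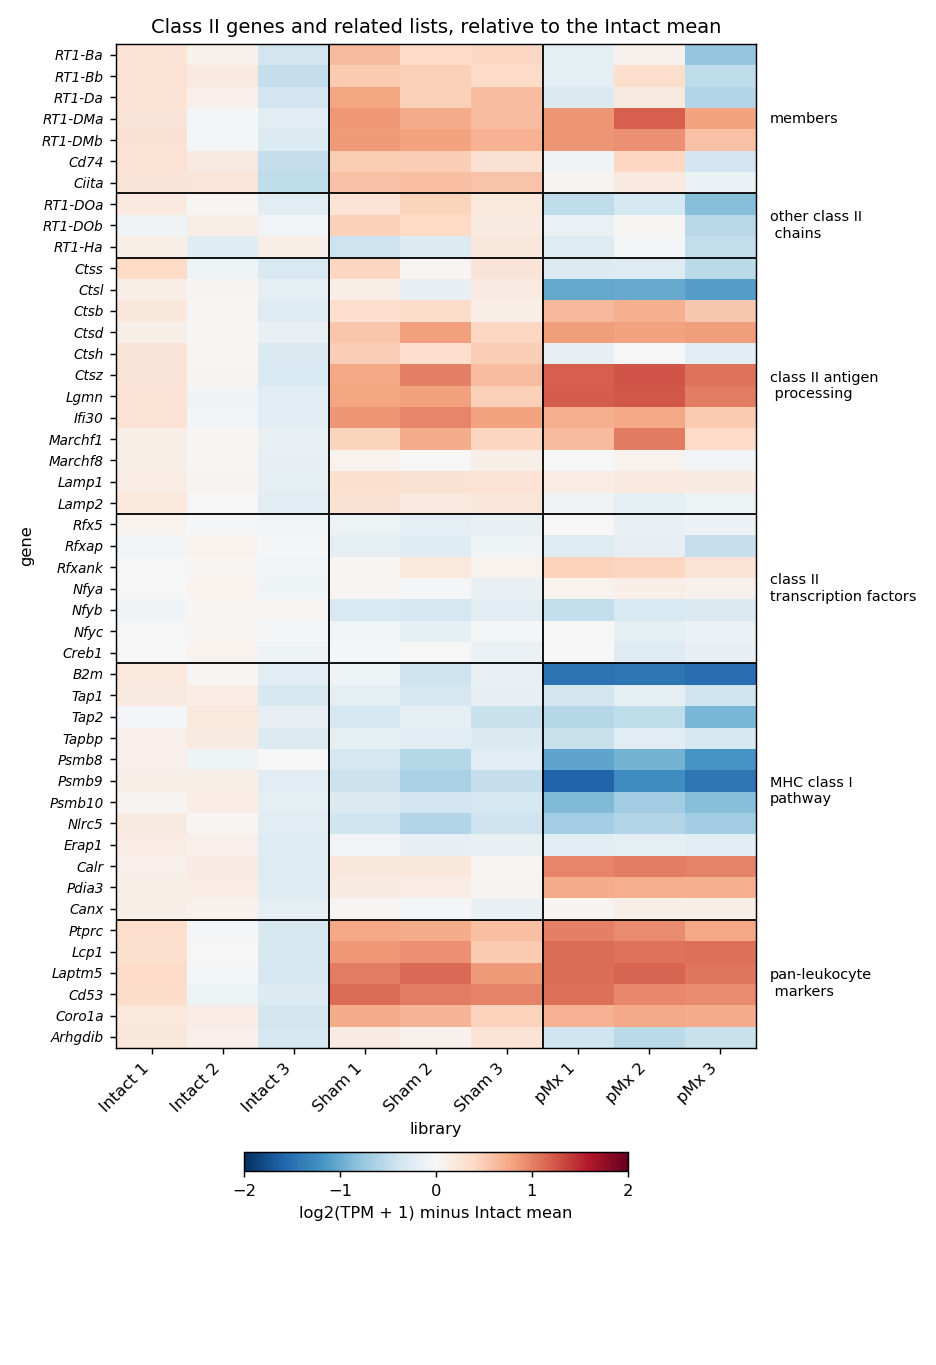
Log2(TPM + 1) minus the Intact mean (colour, from -2 to 2) for the 7 class II genes and related lists (rows) in the 9 libraries (columns). The DM genes are above Intact in both Sham and pMx. In pMx the other 5 of the 7 class II genes overlap Intact, and RT1-DOa is below it. B2m, Psmb8 and Psmb9 of the class I pathway are lowest in pMx.

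Of the MHC class I pathway, which displays peptides from inside the cell, some genes fell after sham surgery and 8 did not pass. In Sham against Intact 5.97% of all genes fell. Of 12 genes of that pathway, none rose and 4 (Nlrc5, Psmb8, Psmb9 and Psmb10) fell in Sham against Intact, 2 rose and 4 fell in pMx against Sham, and 2 rose and 7 fell in pMx against Intact. B2m, the light chain of class I, had 2322, 2039 and 1720 TPM in Intact, 1893, 1517 and 1824 TPM in Sham and 719, 738 and 702 TPM in pMx. It fell by 1.27 on the log2 scale in pMx against Sham (limma adjusted p = 1.51e-04). The count lower in Sham than in Intact was 6 of the 12 without Intact replicate 3 (Erap1, Nlrc5, Psmb10, Tap1, Tapbp and Psmb9). Of all 16512 genes, 1937 were then lower, against 985 with all libraries. In pMx against Intact 9 of the 12 were lower without that library, as were 5192 of all genes.

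Opposite directions were found side by side on rat chromosome 20. By the gene order of GRCr8, Tap2, Psmb8, Tap1 and Psmb9 lie there between RT1-DOb and RT1-DMb. Psmb9, an immunoproteasome subunit, fell from 116 ± 15 TPM in Intact to 80.1 ± 6.17 in Sham and 42.3 ± 5.37 in pMx, and its neighbour RT1-DMb rose from 92.3 ± 18.9 to 158 ± 9.38 and 159.8 ± 19.2 TPM. Psmb8 fell likewise, from 50.96 ± 3.41 TPM in Intact to 39.1 ± 4.59 in Sham (limma adjusted p = 0.0418) and 24.0 ± 1.91 in pMx, and the Sham call was lost without Intact replicate 3. For Psmb9 the limma adjusted p was 0.0291 in Sham against Intact and 6.11e-04 in pMx against Sham. Tap1 and Tap2 did not pass in those comparisons with all libraries, and Tap2 fell in pMx against Intact by 0.66 (limma adjusted p = 0.00515).

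Co-stimulatory and inhibitory ligands that act beside class II gave no common direction. Of 8 genes, 1 rose (Cd80) and 2 fell (Icoslg and Cd274) in pMx against Sham, 1 rose (Cd83) and 2 fell (Cd274 and Pdcd1lg2) in Sham against Intact, and 1 rose and 3 fell in pMx against Intact. Icoslg fell from 35.9 ± 1.22 TPM in Sham to 13.4 ± 1.49 in pMx (-1.36, limma adjusted p = 3.49e-04). Cd80 rose from 0.700 ± 0.261 to 1.99 ± 0.375 TPM (0.82, limma adjusted p = 0.00335), while Cd86 differed by -0.01 and Cd40 by 0.11. Cd83, a maturation marker that stabilises class II at the surface, was 15.7 ± 3.50 TPM in Intact and 24.1 ± 3.22 in Sham (0.60, limma adjusted p = 0.0351). That call was lost without Intact replicate 3, when none of the 8 rose and 3 fell in Sham against Intact, Icoslg among them.

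Markers of the cells that can carry class II were counted beside these genes, and their part in the class II differences was not tested. Of 6 pan-leukocyte markers, 5 rose in Sham against Intact and 5 in pMx against Intact. The remaining 1, Arhgdib, fell in pMx against Sham and against Intact. Their summed level was 322 to 496 TPM in Intact, 590 to 636 in Sham and 580 to 604 in pMx. Ptprc (CD45) had 23.0, 17.3 and 13.9 TPM in Intact, 31.0, 30.2 and 27.4 TPM in Sham and 36.5, 34.9 and 31.0 TPM in pMx. The DM genes and the pan-leukocyte sum were both above Intact in the 2 surgery groups, although Arhgdib was not. The classical chains overlapped Intact in pMx.

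Relative to Ptprc, Cd74 was lower after surgery in every library. The TPM ratio of Cd74 to Ptprc was 57.4, 71.2 and 56.0 in Intact, 49.4, 50.3 and 48.9 in Sham and 28.2, 41.3 and 26.7 in pMx. The 3 groups did not overlap, and Sham stood at 0.810 times Intact and pMx at 0.635 times Sham. The ratio to Csf1r, the macrophage growth factor receptor, gave the same order, with 9.01 to 10.8 in Intact, 7.72 to 8.23 in Sham and 5.68 to 7.60 in pMx. All 6 comparisons of these ratios had an exact two-sided permutation p of 0.1 (n = 3 per group), the smallest possible, and 0.1 after adjustment over the 6.

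Macrophage markers were not uniform, and in pMx against Sham 17.7% of all genes rose and 18.9% fell. Of 15, 1 (Cd68) rose and 4 (Vsig4, Cd163, C1qb and C1qc) fell in pMx against Sham, 5 rose and 1 (Vsig4) fell in Sham against Intact, and 8 rose and 3 fell in pMx against Intact, with a summed level of 1645 to 2600 TPM in Intact, 2621 to 2743 in Sham and 1757 to 2348 in pMx. The counts without Intact replicate 3 were 2 higher and 5 lower, 3 higher and 2 lower, and 4 higher and 3 lower. Vsig4, a complement receptor of resident macrophages, fell from 72.8, 40.5 and 66.3 TPM in Sham to 10.2, 8.69 and 4.76 TPM in pMx (-2.79, limma adjusted p = 3.04e-04). Cd163, a haemoglobin scavenger receptor, fell from 27.8, 26.3 and 27.7 to 5.03, 6.38 and 3.75 TPM (-2.24, limma adjusted p = 2.59e-04). Csf1r was 184 ± 18.8 TPM in Sham and 169.9 ± 22.2 in pMx, a difference of -0.12 that did not pass (95% interval -0.55 to 0.31, limma adjusted p = 0.670).

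Dendritic cell markers also split. Of the 11 measured, 1 rose and 4 fell in pMx against Sham, 5 rose and none fell in Sham against Intact, and 5 rose and 2 fell in pMx against Intact, with sums of 78.6 to 107 TPM in Intact, 142 to 148 in Sham and 94.9 to 121 in pMx. Itgax (CD11c), which macrophages can also carry, rose from 6.67, 12.2 and 3.48 TPM in Sham to 33.1, 36.8 and 33.0 TPM in pMx (2.20, limma adjusted p = 0.00116). Clec10a, a lectin of dendritic cells and macrophages, fell from 87.5, 74.5 and 88.0 to 24.6, 30.8 and 18.1 TPM (-1.75, limma adjusted p = 3.26e-04). Xcr1 and Clec9a, which mark the cross-presenting subset, were at or below 1.19 TPM on average in each group and fell in pMx against Sham (limma adjusted p = 0.00453 and 0.00572). The counts without Intact replicate 3 were 2 higher and 5 lower, 3 and 0, and 5 and 2 in the same order.

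B cell markers were low and fell in pMx. Of 8, 6 fell in pMx against Sham, 1 (Blk) rose and 1 (Pax5) fell in Sham against Intact, and 4 fell in pMx against Intact, with sums of 14.4 to 33.9 TPM in Intact, 13.6 to 16.1 in Sham and 5.57 to 7.08 in pMx. Cd79a, a chain of the B cell receptor complex, was 5.30 ± 0.978 TPM in Sham and 1.91 ± 0.640 in pMx (-1.13, limma adjusted p = 0.0127), and the B cell factor Pax5 was listed at 0 in pMx replicate 1. The Sham calls of Blk and Pax5 were lost without Intact replicate 3, where Cd79b and Ms4a1 were lower in Sham than in Intact and 6 of the 8 were lower in pMx than in Intact. Of 10 T cell markers, 2 (Cd8a and Cd8b) rose and 1 (Cd3g) fell in pMx against Sham, and 6 rose in each comparison with Intact. Cd4, which in rats is also a macrophage gene, was at 162 ± 42.3, 223 ± 8 and 165 ± 20.9 TPM in Intact, Sham and pMx, while Cd3e of the T cell receptor complex stayed at or below 2.39 TPM on average. Of the T cell markers, 4 were higher in Sham than in Intact without Intact replicate 3. Then 5 were higher in pMx than in Intact, and 2 were lower in pMx than in Sham.

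Markers of cells in which class II can be induced moved as well, and their part was not tested either. Of 8 endothelial markers, none rose (2 without Intact replicate 3) and 4 fell in pMx against Sham, 2 fell in Sham against Intact (5 without that library) and 5 fell in pMx against Intact, where Cldn5, a tight junction gene, went from 113 ± 22.8 to 30.5 ± 4.41 TPM (-1.85, limma adjusted p = 2.08e-05). Of 8 synovial fibroblast markers, 3 rose and 1 (Dcn) fell in pMx against Sham, 4 rose and 1 (Prg4) fell in Sham against Intact, and 5 rose and 2 fell in pMx against Intact. Thy1, a fibroblast surface gene, rose from 326 ± 75.9 TPM in Sham to 1037 ± 62.2 in pMx (1.69, limma adjusted p = 2.31e-04). All 8 adipocyte markers fell in pMx against Sham and against Intact, and none passed in Sham against Intact. None of the 8 skeletal muscle markers passed in any comparison, and their spread between libraries was wide.

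Outside the 7, the genes whose pattern over the 9 libraries was most like the mean of the class II genes included several known from myeloid cells. Among 13197 genes with a mean of at least 1 TPM, the highest Pearson correlations included those of Ninj1 (0.973), Ptafr (0.969), Ccr2 (0.960), Apbb1ip (0.949), Dnase2 (0.943), Cd4 (0.941), Nlrp3 (0.940), Il10ra (0.940) and Flt3 (0.931). Ccr2, the receptor that draws monocytes into tissue, had 10.9, 7.44 and 3.66 TPM in Intact, 18.0, 15.4 and 18.3 TPM in Sham and 7.23, 10.3 and 5.78 TPM in pMx. Like the classical chains it was highest in the 3 Sham libraries, with Intact and pMx overlapping. Flt3, the receptor of dendritic cell precursors, followed at a low level of 1.29 ± 0.339, 1.95 ± 0.222 and 1.34 ± 0.280 TPM. These are rankings over 9 libraries in 3 groups, given without a test.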

How the data were processed

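Poly(A)-selected RNA from 9 rat knee libraries, 3 each of Intact, Sham and pMx, was sequenced on a BGI DNBSEQ instrument. The authors deposited TPM values rounded to 2 decimals for 17602 genes, which they obtained through BGI's Dr. Tom system. The submitters' processing notes name HISAT2 2.0.4 and the assembly mRatBN7.2. The counting tool, the annotation and the handling of strand and of reads with several matches are not given in the sources used here. The depth of the libraries is unknown, since TPM keeps no counts. Since TPM divides a fixed total, a strong rise of some genes lowers others.

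Groups came from the sample titles. From the deposited TPM, log2(TPM + 1) was fitted for 16512 genes, those exceeding 0 TPM in 3 or more libraries, with limma 3.58.1 in R 4.3.3, with 1 mean per group over all 9 libraries, eBayes with a mean-variance trend and Benjamini-Hochberg adjustment over all genes of a comparison. Fold changes on this scale understate those of genes near 1 TPM. Ratios were compared with exact two-sided permutation tests (SciPy 1.17.1). Matplotlib 3.10.9 drew the figures. The fit was tested on simulated data.

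The genes named were the 7 class II genes, the genes of the chain, transcription factor and interferon lists, up to 4 genes per other list with the largest called change, markers near 0 and the 10 most alike genes. Apart from the 7 class II genes, which were chosen by name, the genes and lists were chosen with earlier results of these data known. Further list genes in the text, such as Ctss, Ctsh, Cd83, Xcr1 and Tap2, were named after their values were seen. Some genes that the rule covers are left out here. Of the gene identifiers, 17419 were found in RefSeq's GRCr8 table, those of the 7 included, which was used for names, gene order and promoters.

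The alternatives were median-of-ratios scaling, quantile normalization, a pseudocount of 0.1 or 0.01, all genes or those with a mean of 1 TPM or more, the 6 libraries of a comparison alone, eBayes without the trend, a block for the replicate number, a call by adjusted p alone and the omission of each library. The counts of class II genes past the adjusted p, the counts of the lists without Intact replicate 3 and the ratios among class II genes were added after the values were seen.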

Additional observations from a re-analysis of the deposited data

How the results depend on the processing

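Depth cannot be judged from TPM, and 3 libraries a group leave the class II calls near the threshold. Of 378 alternative values of the 7 genes' log2 fold changes, 346 kept their direction and side of the threshold, 12 no longer passed, 7 newly passed and 13 changed sign, each of the last below the threshold. The sign changes were RT1-DMb in pMx against Sham (range on leaving out a library -0.051 to 0.11, with -0.038 without Sham replicate 3 and -0.032 without pMx replicate 1), RT1-Bb in pMx against Intact (-0.35 to 0.088, with 0.032 without Intact replicate 1), Ciita in pMx against Intact (-0.21 to 0.18, with -0.034 without pMx replicate 2) and Cd74 in pMx against Intact (-0.25 to 0.17 on leaving out a library, 0.0097 under median-of-ratios scaling and 0.053 under quantile normalization). The cause was not tested.

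By adjusted p alone, 2 of the 7 genes were called in each comparison in place of 0. By the DEG rule, leaving out a library gave 0 to 1 in pMx against Sham (1, RT1-Da, without pMx replicate 2), 0 to 0 in Sham against Intact and 0 to 1 in pMx against Intact (1 without Intact replicate 1, pMx replicate 1 or pMx replicate 3). The number past the adjusted p ran from 0 to 4 in pMx against Sham and from 0 to 2 in Sham against Intact, and was 2 throughout in pMx against Intact. In pMx against Sham it was 0 without Sham replicate 1, pMx replicate 1 or pMx replicate 3, 1 without Sham replicate 2 or 3, 3 without pMx replicate 2 and 4 without Intact replicate 3. In Sham against Intact it was 0 without Sham replicate 1 or 2. With the replicate block it was 4 in pMx against Sham (RT1-Da, RT1-Ba, RT1-Bb and Ciita), and the block changed no other call of the 7. The numbers are not known to mark shared animals. Between libraries with equal numbers, the distances from the group mean correlated at -0.66 to 0.48, and not every library correlated best with its own number.

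Over all genes, DEGs in pMx against Sham numbered 1355, with 2229 and 2303 at pseudocounts of 0.1 and 0.01, 6046 by adjusted p alone, 1343 with the replicate block and 1221 to 1448 on leaving out a library. In Sham against Intact they numbered 323, with 612, 603, 2097, 297 and 191 to 417, the lowest without Sham replicate 2. In pMx against Intact they numbered 2360, with 3531, 3662, 8350, 2350 and 2301 to 2420. The Cd74 ratios kept their direction in each alternative run.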
